A study of Homo sapiens with 17 samples.

Results

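Tagged H2A.Z.2 was compared between confluent and growing Caco-2/15 cells, using the 4 peak lists from Flag chromatin immunoprecipitation of this isoform. They are 4 of the 8 peak lists of the series and 4 of its 17 samples, chosen by their labels alone: 2 lists from cells kept 7 days past confluence (postconfluent) and 2 from cells still growing (subconfluent). Caco-2/15 cells come from a colon carcinoma and, once confluent, slowly differentiate towards absorptive enterocytes. In the cells used for H2A.Z.2, 1 copy of the H2A.Z.2 gene, H2AFV (now H2AZ2), carried a Flag tag placed by CRISPR-Cas9 in its 3′ region, so both groups share the genotype and untagged H2A.Z.2 was not seen. Each state has 2 experiments, Exp1 and Exp2. The labels do not say whether these were separate cultures, so any p below measures the spread between these samples. The 4 lists of H2A.Z.1, tagged in other cells of the same line and taken in the same states, served as a second readout at the same places.

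H2A.Z is a histone variant that takes the place of H2A in some nucleosomes, most of all in those that flank the start of genes and at enhancers. The remodelling complexes built around SRCAP and EP400 put it in, and ANP32E and the INO80 complex have been linked to its removal. H2AZ1 and H2AZ2 encode a pair of isoforms that differ by a few amino acids, and common antibodies do not tell them apart, whereas a tag does. As enterocytes mature they leave the cell cycle and switch on brush border, digestive and lipid transport genes.

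Promoters that the lists separated by state are shown first, each 300 bases from 250 before to 50 after the gene start, 5′ to 3′ on the gene's strand (RefSeq, GRCh38.p14). Capitals mark the bases covered by the H2A.Z.2 region found in 1 state and absent from both whole lists of the other. H2AC4 and PTBP3 had the region after confluence, CCDC68 and N4BP3 before it. H2AC4 encodes a replication-dependent H2A, and PTBP3 an RNA-binding protein of the polypyrimidine tract family.
H2AC4, chr6:26033569-26033868, minus strand: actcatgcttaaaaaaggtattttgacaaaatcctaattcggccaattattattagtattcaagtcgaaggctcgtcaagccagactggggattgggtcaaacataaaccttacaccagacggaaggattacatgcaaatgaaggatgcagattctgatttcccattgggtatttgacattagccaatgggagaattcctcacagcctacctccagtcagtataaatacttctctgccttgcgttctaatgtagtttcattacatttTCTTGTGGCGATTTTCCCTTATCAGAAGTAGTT
PTBP3, chr9:112332977-112333276, minus strand: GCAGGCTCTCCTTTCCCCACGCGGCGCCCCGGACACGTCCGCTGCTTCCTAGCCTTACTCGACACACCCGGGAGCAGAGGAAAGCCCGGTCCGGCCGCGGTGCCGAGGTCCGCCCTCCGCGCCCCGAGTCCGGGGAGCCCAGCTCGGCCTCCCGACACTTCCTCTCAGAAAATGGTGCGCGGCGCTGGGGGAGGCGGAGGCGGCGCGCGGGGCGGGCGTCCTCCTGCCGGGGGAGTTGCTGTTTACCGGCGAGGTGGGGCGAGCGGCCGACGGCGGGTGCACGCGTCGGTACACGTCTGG
CCDC68, chr18:54959412-54959711, minus strand: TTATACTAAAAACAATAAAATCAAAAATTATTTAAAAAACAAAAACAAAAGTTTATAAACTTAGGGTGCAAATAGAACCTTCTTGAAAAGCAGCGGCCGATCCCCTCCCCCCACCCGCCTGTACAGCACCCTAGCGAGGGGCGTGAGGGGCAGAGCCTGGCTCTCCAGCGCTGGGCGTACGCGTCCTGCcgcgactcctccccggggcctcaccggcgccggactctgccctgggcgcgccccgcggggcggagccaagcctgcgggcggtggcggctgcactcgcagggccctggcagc
N4BP3, chr5:178113282-178113581, plus strand: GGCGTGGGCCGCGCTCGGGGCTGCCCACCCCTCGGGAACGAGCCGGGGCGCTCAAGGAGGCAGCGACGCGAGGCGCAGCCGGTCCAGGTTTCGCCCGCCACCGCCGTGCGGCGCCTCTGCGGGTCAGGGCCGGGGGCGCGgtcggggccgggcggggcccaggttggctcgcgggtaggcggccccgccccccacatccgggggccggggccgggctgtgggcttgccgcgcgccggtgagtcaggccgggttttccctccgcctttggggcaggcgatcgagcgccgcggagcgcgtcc

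The region at H2AC4 (chr6:26033125-26033601) reached into 33 of the 300 bases, and the nearest interval in a whole subconfluent list lay 11049 bp away. H2A.Z.1 was listed there in both whole postconfluent lists and in 1 of 2 whole subconfluent lists. The H2A.Z.2 fold enrichment there was 5.78 in Exp1 and 6.43 in Exp2 after confluence. H2AC4 belongs to a family of near-identical genes, so its reads may be shared with other copies. At PTBP3 all 300 bases were covered, and a subconfluent interval lay 345 bp away. For CCDC68 and N4BP3 the nearest postconfluent intervals lay 128 and 239 bp away, so at these 3 genes an interval of the other state stood close by. H2A.Z.1 was listed in all 4 of its whole lists at the regions of PTBP3 and N4BP3. At that of CCDC68 it was in both whole postconfluent lists and in 1 of 2 whole subconfluent lists, against the direction of H2A.Z.2. The 4 promoters had GC contents of 39.3%, 74%, 60.7% and 80.3%, and 6, 42, 24 and 46 CpG dinucleotides. The letters TATAAA occurred, on either strand, in those of H2AC4 and CCDC68. The same letters were found in 9.63% of all 15842 promoters of the table.

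A promoter at which the H2A.Z.2 summit changed side is that of UNG, which encodes the uracil-DNA glycosylase that takes uracil out of DNA. It was chosen after its values were seen. Capitals mark the 18 bases from one subconfluent summit to the other, at −218 and −201 bp from the start, where negative means before it. After confluence both summits lay beyond the printed bases, at 717 and 688 bp.
UNG, chr12:109097347-109097646, plus strand: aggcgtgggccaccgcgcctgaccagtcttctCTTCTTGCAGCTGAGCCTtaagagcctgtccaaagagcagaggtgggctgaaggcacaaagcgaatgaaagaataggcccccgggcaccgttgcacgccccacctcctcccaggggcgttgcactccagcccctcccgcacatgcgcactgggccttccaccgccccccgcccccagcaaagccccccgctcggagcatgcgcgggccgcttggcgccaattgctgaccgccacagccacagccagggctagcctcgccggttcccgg

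The deposited H2A.Z.2 lists held 55788 and 30603 intervals before confluence and 39086 and 51348 after, as means 43195.5 ± 17808.5 and 45217 ± 8670.54 (SD, n = 2 each). Since these lengths reflect how much was called, only the 30603 intervals with the highest −log10 p were used from each. The lists then covered 27.7 and 18.5 Mb before confluence (Exp1, Exp2) and 24.6 and 24.7 Mb after. Median widths were 780 and 474 bp before and 666 and 670 bp after. The subconfluent Exp2 list stood apart: it was used whole, down to a −log10 p of 5.19, whereas the other 3 ended at 9.99 to 14.0. Peak lists give no read depth. In bulk chromatin, fewer cells with H2A.Z.2 at a place and less of it per cell cannot be told apart. The names of the intervals show that both Exp1 lists of H2A.Z.2 came from one sequencing run and both Exp2 lists from another, so each run holds both states. By the Jaccard index of covered bases, the postconfluent lists overlapped each other at 0.626 and the subconfluent lists at 0.567. The pairs from 1 run but different states overlapped at 0.635 and 0.579, so lists of 1 state were no more alike than lists of 1 run.

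Markers were checked at gene starts, although a peak is no measure of expression. HNF4A, a transcription factor of the intestinal epithelium, held an interval in all 4 lists at percentiles of 87.7, 96.2, 92.9 and 93.9. VIL1, a brush border gene, held one in every list but that of postconfluent Exp1. CDX2, SI, KRT20 and MUC2 had none in any of the 4, nor did the blood cell gene PTPRC or the liver gene ALB. By gene list, intervals in all 4 were found for 13 of 25 intestinal transcription factors and 12 of 22 brush border genes. The counts were 12 of 20 for lipid absorption and 6 of 25 for digestive enzymes and transporters. For other cell types they were 5 of 15 fibroblast markers, 3 of 15 blood cell markers and 3 of 15 hepatocyte markers. Secretory, Paneth and tuft cell markers gave 2 of 22. The share of all 20033 protein-coding genes was 55.2%.

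The first question was where H2A.Z.2 was listed in 1 state only. Of 41209 regions, made by merging intervals of the 4 lists that overlap, 18925 (45.9%) held an interval in all 4 lists. Both lists after confluence and none before it held 1186 regions (2.88% of all), and the reverse held 904 (2.19%). Many of these had a weaker interval in the other state: 337 (0.818%) and 328 (0.796%) were absent from both whole lists of the other state as well. With no interval of the other state within 1 kb, 208 and 236 were left. The lists could also be parted by sequencing run: 1493 regions were in both run 1 lists only and 580 in both run 2 lists only. With 2 lists against 2, the smallest p that an exact permutation test can give is 0.333, so these counts are descriptions. Leaving out any 1 of the 4 lists gave 2081 to 4908 and 1896 to 4651 regions, since fewer lists then have to agree. With lists cut to equal covered length the counts were 200 and 1003, so which state had more such regions turned with the way the lists were cut.

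The regions of the 2 states differed in position relative to genes. Of the 1186 postconfluent regions 32.5% lay inside a gene, more than 1 kb from its ends, against 24.0% of the 904 subconfluent regions and 14.6% of regions in all 4 lists. Far from genes, by more than 10 kb, lay 25.3% of the postconfluent and 43.6% of the subconfluent regions. Gene starts, within 1 kb, held 20.1% and 12.4%, against 48.8% of regions in all 4 lists. The gap between states inside genes and far from them was wider where no interval of the other state lay within 1 kb: 48.6% of 208 against 28.8% of 236 inside genes, and 20.2% against 53.4% far from them. Among the regions that part the runs, 47.8% of the run 1 regions and 19.3% of the run 2 regions lay far from genes, so a gap of this size also separates the runs. The part of the sequencing run in the state gap was not tested. Each order also rested on 1 list: without the subconfluent Exp1 list the shares inside genes were 27.9% after and 29.8% before confluence, and without the postconfluent Exp2 list the shares far from genes were 36.3% after and 34.7% before. Over all intervals of the lists cut to 30603, the share inside genes was 18.5% and 18.8% before and 19.6% and 19.9% after confluence. These values do not overlap, with an exact permutation p of 0.333, the smallest that 2 lists against 2 allow. The share far from genes was 25.1% and 19.4% before and 22.5% and 19.6% after, where the states overlap.

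**Figure D1:**
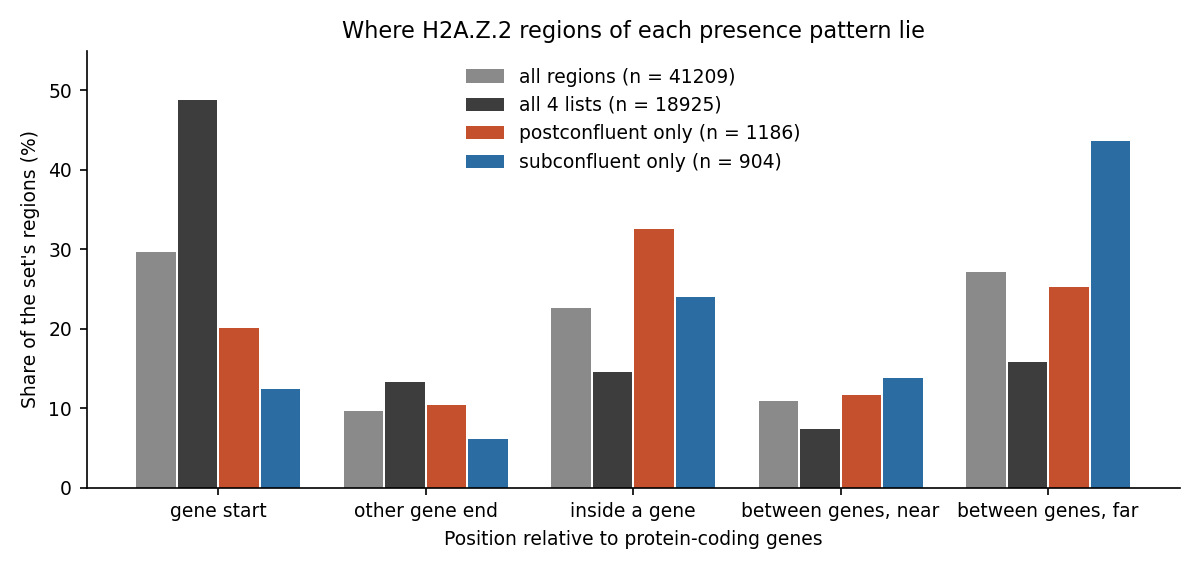
Share of H2A.Z.2 regions (y axis, percent of the set) in 5 positions relative to protein-coding genes (x axis), for all regions, those in all 4 lists, and those in 1 state only; bars are shares of single sets and carry no replicate error. Gene starts hold 48.8% of the regions in all 4 lists, postconfluent regions reach 32.5% inside genes, and subconfluent regions reach 43.6% far from genes.

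Among the regions present after confluence and absent from both whole subconfluent lists, those of highest rank lay inside CES4A, next to LY6E and inside ADAMTS13. A percentile here is the rank of an interval's fold enrichment within its own list. In CES4A, a carboxylesterase gene, the region (chr16:66996139-66996657) stood at percentiles of 74.1 and 71.0, with folds of 7.15 and 8.89. It lay 7550 bp from the gene start, and no subconfluent interval came nearer than 7493 bp. LY6E, a gene of a membrane-anchored surface protein, stood at 64.1 and 78.0, with a subconfluent interval 391 bp away. In ADAMTS13, the gene of the protease that cuts von Willebrand factor, the region (chr9:133448299-133449260) stood at 82.3 and 63.1, with a gap of 9443 bp. CES4A and ADAMTS13 thus held the most isolated of the leading regions for H2A.Z.2. H2A.Z.1, however, was listed before confluence in both whole lists at CES4A and in that of Exp2 at ADAMTS13. PCGF5, a Polycomb subunit gene, held a region at 63.0 and 69.2 with a gap of only 202 bp, and ZBTB40, a zinc finger gene, one at 59.2 and 54.2 with a gap of 3291 bp. Others of the leading 10 lay at the end of SMARCC1, a gene of the SWI/SNF remodeller (52.8 and 70.7), and near the starts of ANP32B (55.7 and 52.1), RAD23B (51.5 and 65.5) and PLXNA2 (53.9 and 51.2). Those at SMARCC1, ANP32B, RAD23B and PLXNA2 lay 139 to 221 bp from a subconfluent interval.

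Members of the chosen gene lists with such a postconfluent region were HES4, CDKN1C and APOA4. HES4, a repressor of the Hairy family downstream of Notch, stood at 52.8 and 47.6, with a gap of 627 bp. CDKN1C, which encodes the cell cycle inhibitor p57, held its region at the annotated end (chr11:2885183-2885821) at 10.5 and 30.1, with a gap of 1048 bp. APOA4, an apolipoprotein gene of lipid absorption, had one of the weakest intervals of its lists, at 0.049 and 0.57, with a gap of 218 bp. All 3 had an H2A.Z.1 interval in both whole postconfluent lists, which held one at 86.9% and 90.9% of all 41209 regions. CDKN1C also had one in both whole subconfluent H2A.Z.1 lists, and HES4 in that of Exp2. For APOA4 no whole subconfluent list of either isoform held an interval in this region, although a subconfluent H2A.Z.2 interval stood close by.

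The regions present before confluence and absent from both whole postconfluent lists included 6 of the leading 10 that were more than 10 kb from any gene. The first stood 163758 bp from HAS2, a hyaluronan synthase gene, at percentiles of 64.0 and 62.5, and the nearest postconfluent interval was 165178 bp away. Next to PABPC4, a poly(A)-binding protein gene, and 222 bp from an annotated end of it, the region (chr1:39577012-39577483) stood at 59.3 and 65.8 with a gap of 61762 bp. Others lay 269896 bp from FGF9 (56.0 and 62.1), 36532 bp from GOLM2 (53.3 and 68.8), 62441 bp from LONRF1 (52.0 and 58.7) and 22104 bp from TTC6 (49.98 and 70.9), and 1 lay inside TRMT9B (69.7 and 52.7). Of the leading 10, those at the starts of COPRS (47.2 and 50.7) and SANBR (47.03 and 47.4) had gaps of only 503 and 78 bp. Among list members, MAML1, a Notch coactivator gene, held such a region at 37.6 and 32.5, and CDKN2D, which encodes a cyclin-dependent kinase inhibitor, at 22.5 and 4.53. Their gaps were 467 and 550 bp, so a postconfluent interval stood close by at both.

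The H2A.Z.1 lists, which had no part in choosing the regions, differed between states in the same direction. At the 1186 postconfluent H2A.Z.2 regions, an H2A.Z.1 interval was found at 39.6% and 31.9% in the subconfluent lists and at 70.1% and 73.2% in the postconfluent lists. At the 904 subconfluent regions it was found at 66.7% and 53.5% before and 45.5% and 38.7% after confluence. Over all 41209 regions the shares were 67.1% and 61.6% before and 68.9% and 68.4% after. The states did not overlap in either set, and the gap over all regions was smaller than in both. With whole lists the sets were other regions, 1516 and 762 of 70902. The 1516 postconfluent ones gave 39.1% and 39.1% before and 83.6% and 93.1% after, against 55.2% and 57.0% before and 64.8% and 74.0% after over all 70902. At the 762 subconfluent ones the states overlapped, with 72.0% and 67.2% before and 60.0% and 69.9% after. H2A.Z.1 was itself postconfluent only at 252 of the 1186 regions (21.2%, against 3.89% of all regions) and subconfluent only at 13 (1.10%). At the 904, it was subconfluent only at 110 (12.2%, against 1.87% of all regions) and postconfluent only at 23 (2.54%). The Exp2 lists of both isoforms came from one run, while the Exp1 lists of the isoforms came from different runs.

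**Figure D2:**
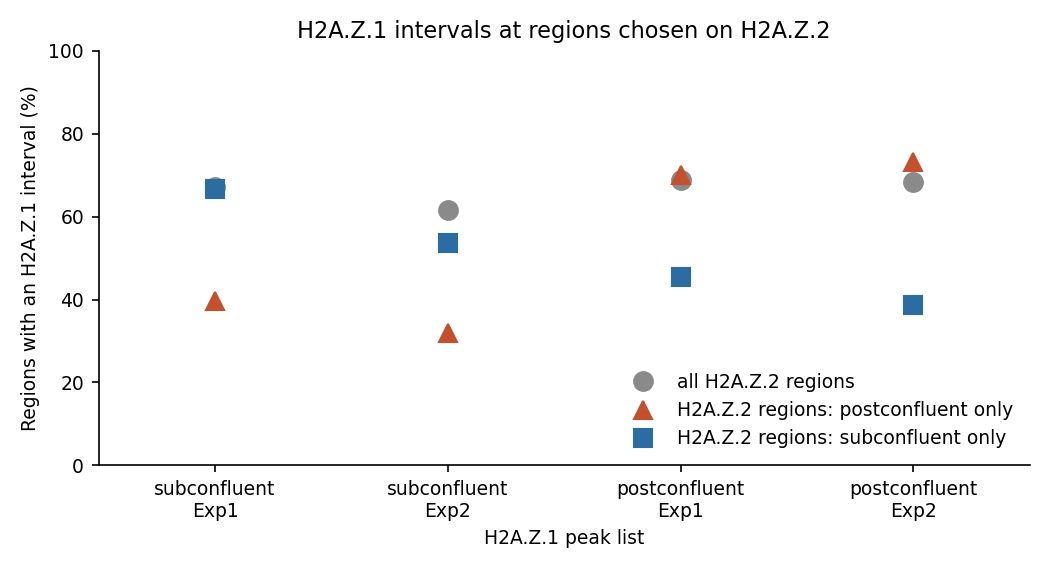
Share of H2A.Z.2 regions that hold an H2A.Z.1 interval (y axis, percent) in each of the 4 H2A.Z.1 lists (x axis); each point is 1 list and 1 set of regions. Postconfluent H2A.Z.2 regions go from 39.6% and 31.9% in subconfluent to 70.1% and 73.2% in postconfluent H2A.Z.1 lists, and subconfluent regions from 66.7% and 53.5% to 45.5% and 38.7%.

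At gene starts themselves few genes were separated. Of the 15842 genes with a start in the RefSeq promoter table, 9604 to 9789 (60.6% to 61.8%) held an H2A.Z.2 interval within 1 kb in each list, and 8993 (56.8%) in all 4. Present in the cut lists after confluence only were 99 genes (0.625%) and before only 63 (0.398%). The strongest of the 99 were PYDC1, a gene of the pyrin domain family, at percentiles of 92.8 and 90.8, RASGRP2, a Ras exchange factor gene, at 87.2 and 70.1, and PRKAR1B, a protein kinase A subunit gene, at 67.6 and 70.6. At these 3, however, the same merged region held an interval in all 4 lists, and one within 1 kb of the start only after confluence. This was so for 7 of the 99 genes and 4 of the 63. Among the rest, SYP, which encodes synaptophysin of secretory vesicles, led at 64.1 and 70.7, then ZNF467 at 61.5 and 78.0, and TMEM187 at 61.5 and 68.6. Before confluence only, FHOD3, a formin gene, stood at 68.2 and 55.2, NLRP2 at 67.5 and 53.3 and ATP6V1C2, a proton pump subunit gene, at 52.6 and 56.3. By percentile, SYP, ZNF467, TMEM187, FHOD3, NLRP2 and ATP6V1C2 would rank in the leading 10 regions absent from the other state's whole lists. None of them is there, so their regions were not absent from those whole lists. ZNF467 and TMEM187 also held an H2A.Z.1 interval in all 4 cut lists of that isoform. Of the 374 members of the 16 gene lists, 3 were among the 99 (SYP, BMP4 and SLC28A1) and 2 among the 63 (MXD3 and PRDM1).

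The HOXD13 and PTGDR2 loci show what such a window measures. The interval between HOXD13 and HOXD12, posterior patterning genes, was present in all 4 lists. It spanned 961 and 582 bp before confluence and 1458 and 1948 bp after, at percentiles of 72.6 and 83.0 before and 96.8 and 86.1 after. Its summits lay at positions 176097527 and 176097659 of chromosome 2 before and 176097639 and 176097572 after, so they interleave. At PTGDR2, a prostaglandin receptor gene, the interval spanned 946 and 563 bp before and 1083 and 1186 bp after. Here the percentiles overlapped between states, at 91.6 and 79.8 before and 96.2 and 73.1 after. At both loci the states differed in how far an interval reached, not in whether it was listed. At NCAPD2, a cell cycle gene also chosen outside the naming rule, the widths overlapped. They were 1510 and 980 bp before and 1024 and 1037 bp after. Widths of the states did not overlap in 5589 of 17464 regions (32%), and limma called 0 regions on width, so these loci are descriptions.

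By chromosome, the share of regions found after confluence only stood furthest above the share found before only on chromosomes 9 and X, and by number the excess was largest on chromosome 1, with 138 and 79 of 3852 regions. On chromosome 9 they were 66 and 24 of 1476 regions (4.47% and 1.63%), and on X 31 and 10 of 818 (3.79% and 1.22%). Chromosome 2 held 74 and 109 of 3438 (2.15% and 3.17%). In sequence, promoters with an interval in all 4 lists had a median GC content of 66.0% and a median CpG ratio, observed over expected, of 0.856. For the 99 postconfluent starts these were 65.0% and 0.732, for the 63 subconfluent starts 63.3% and 0.703, and for the 5554 starts with no interval 53.7% and 0.321. The letters TATAAA, on either strand, stood in 4.50%, 11.1%, 15.9% and 18.2% of these sets. CCAAT stood in 36.7%, 36.4%, 33.3% and 36.3%, against 36.4% of all promoters. Promoters separated by state thus lay between the constant and the empty ones in CpG ratio and in TATAAA, and were near both in CCAAT.

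The second measure was where the summit of the strongest interval lay relative to the gene start. In every H2A.Z.2 list summits fell into an upstream and a downstream group, and only 7.70% to 11.4% lay within 100 bp of the start. At the 8820 gene starts with an interval in all 8 lists, H2A.Z.2 summits lay downstream of the start at 43.5% and 45.6% before confluence and 46.4% and 50.2% after (means 44.5% ± 1.46 and 48.3% ± 2.73, SD, n = 2 each). The postconfluent list was higher in both experiments, by 2.87 and 4.66 percentage points, and the states did not overlap. The exact permutation p was 0.333, the smallest possible with 2 against 2. For H2A.Z.1 the shares were 46.1% and 50.7% before and 48.1% and 54.1% after, higher by 1.98 and 3.46 points. Over both isoforms, 4 lists against 4, the difference was 3.24 points, with a 2-sided exact permutation p of 0.20 and an adjusted p of 0.471 over 6 measures, so it did not pass. In each state and isoform the Exp2 list also stood above the Exp1 list.

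**Figure D3:**
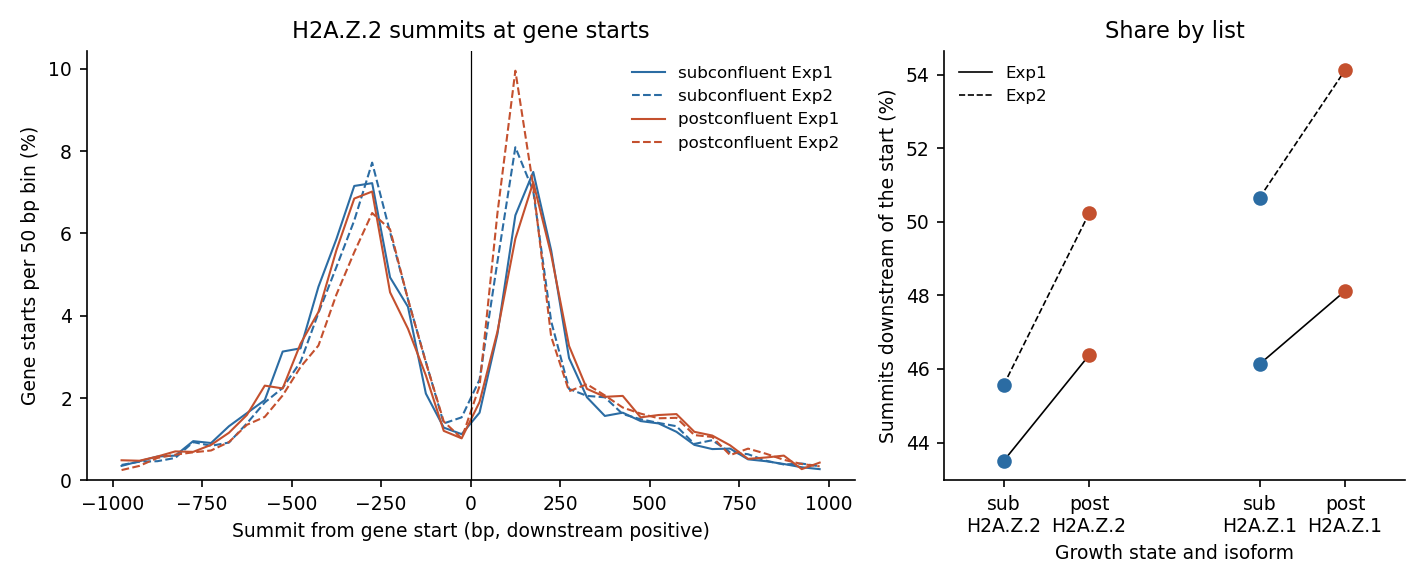
Left, share of 8820 gene starts (y axis, percent per 50 bp bin) by the distance of the H2A.Z.2 summit from the start (x axis, bp, downstream positive) in each of the 4 lists; right, share of summits downstream of the start (y axis, percent, from 43% upwards) in each list, with lines joining the lists of 1 experiment. Each of the 4 lines rises from subconfluent to postconfluent, by 1.98 to 4.66 points.

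Gene by gene, 239 starts (2.71% of 8820) had the summit upstream in both subconfluent and downstream in both postconfluent lists, and 117 (1.33%) the reverse. Where every list held just 1 interval at the start (3437 genes), the counts were 86 and 32. For 24 and 5 genes the switch was also seen in both H2A.Z.1 pairs. The 24 included DNMT1, the maintenance DNA methyltransferase gene, YWHAE, a 14-3-3 protein gene, UBE2D1 and UBE2K, ubiquitin-conjugating enzyme genes, ID1, which encodes an inhibitor of bHLH factors, and the glycosylase gene UNG. The 5 were ASPSCR1, GPR160, BRME1, KIF24 and LHX6. At DNMT1 the H2A.Z.2 summit lay at −263 and −226 bp from the start in subconfluent cells and at 669 and 659 bp in postconfluent cells. At YWHAE it lay at −297 and −280 bp before confluence and at 422 and 114 bp after. At ASPSCR1, a tether gene of glucose transporter vesicles, it lay at 581 and 584 bp before confluence and at −649 and −500 bp after. BRME1 and CC2D1A start side by side on opposite strands, as do NUDT2 and KIF24, so each pair counts shared intervals once in each direction.

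Tested region by region with limma, 82 of 17464 regions had a summit that differed between states for H2A.Z.2 (0.47% at an adjusted p under 0.05, with 795 regions, 4.55%, at an unadjusted p under 0.05). The called shifts ran from 334.5 to 1861 bp, with a median of 590.5 bp, against a median of 49 bp over all regions. Of the 82, 43 (52.4%) lay at gene starts, near the 51.0% of all tested regions, and there 29 moved downstream and 14 upstream. The direction was not counted over all tested gene starts. In 26 of the 82 H2A.Z.1 was called as well, against 124 of all 17464 regions (0.71%). Both tests used 1 shared spread per region, so the calls of the isoforms are not independent. The H2A.Z.1 difference had the same sign in 52 of the 82, against 9055 of all 17464 regions (51.8%). Summits jump between a few maxima, so the normal spread that limma assumes does not hold well for them. The count fell to 18 with the replicate block and to 0 with the H2A.Z.2 lists alone (1004 regions at an unadjusted p under 0.05, smallest limma adjusted p = 0.0663). Of the 82, 34 had 1 interval in every list, and in the others at least 1 list held several, so that a shift there can be a change of which interval was strongest. Leaving out 1 list gave 92 to 163 calls, with the most, 163, without the postconfluent H2A.Z.2 Exp1 list and 136 without the subconfluent H2A.Z.2 Exp1 list.

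At several called starts, UNG, DNMT1, TTBK2, CPT1A and ASPSCR1 among them, the H2A.Z.1 summits parted the same way. At UNG the shift was 912 bp downstream (SE 34.6, limma adjusted p = 0.0031). The H2A.Z.1 summits there lay at −228 and −262 bp in subconfluent and at 708 and 719 bp in postconfluent cells. At DNMT1 the shift was 908.5 bp downstream (SE 34.4, limma adjusted p = 0.0031), and at TTBK2, a tau tubulin kinase gene, 1140.5 bp downstream (SE 55.5, limma adjusted p = 0.00577). CPT1A encodes the carnitine palmitoyltransferase that admits long-chain fatty acids to mitochondria. Its H2A.Z.2 summit stood 2100 and 2033 bp inside the gene before confluence and at 421 and −10 bp after, and that of H2A.Z.1 at 2066 and 2056 bp before and 15 and 296 bp after. The shift of −1861 bp in the gene's direction was called (SE 162, limma adjusted p = 0.0254) but not with the replicate block (limma adjusted p = 0.104). Away from starts, a region 2976 bp from that of IGF2BP3, an RNA-binding protein gene, shifted by 1075 bp (SE 40.9, limma adjusted p = 0.0031), and the isoforms differed there by −1 bp. UNG, DNMT1, TTBK2, ASPSCR1 and IGF2BP3 kept the call with the replicate block (limma adjusted p = 0.0284 to 0.0489).

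Other summits moved for H2A.Z.2 while the H2A.Z.1 lists stayed near one place. At C21orf91 the H2A.Z.2 summit went from −322 and −323 bp to 548 and 550 bp, and the 4 H2A.Z.1 summits lay between −334 and −268 bp. POLR3K, an RNA polymerase III subunit gene, went from −461 and −361 bp to 356 and 433 bp, with H2A.Z.1 between −453 and −384 bp. SIX4, a homeobox gene, went from 156 and 129 bp to 1023 and 946 bp, with H2A.Z.1 between 754 and 878 bp. The test of the isoform difference itself called these 3 (limma adjusted p = 0.012, 0.0283 and 0.0177), and over all regions it called 89 of 17464 (0.51%). At C21orf91 each of the 8 lists held 1 interval. At POLR3K and SIX4 at least 1 list held more. With the replicate block SIX4 was not called for the state (limma adjusted p = 0.0504). Some named shifts changed sign when 1 list was left out and the regions were rebuilt, which splits some merged regions. Without subconfluent Exp1 the value at UNG was −213.5 bp, although the summits of both subconfluent lists lay close together there. Without postconfluent Exp2 it was −309 bp at CPT1A and 72 bp at POLR3K. All 3 values are along the chromosome and against the direction seen with every list.

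**Figure D4:**
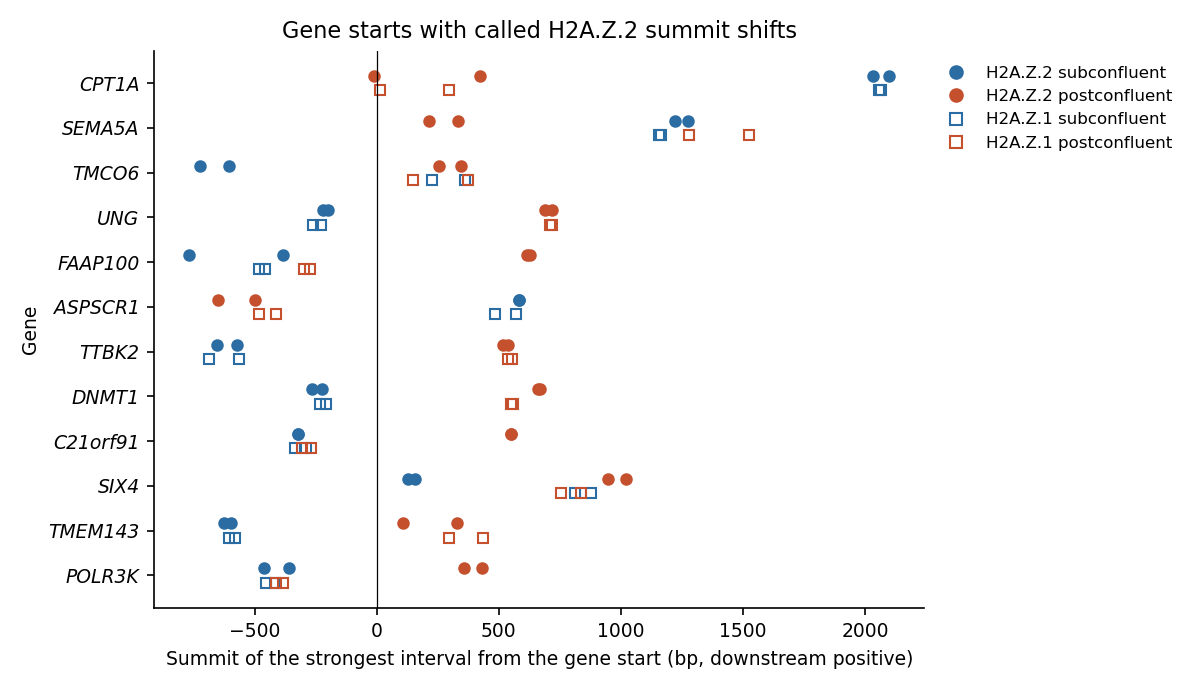
Distance of the strongest interval's summit from the gene start (x axis, bp, downstream positive) at the 12 gene starts among the named regions with a called H2A.Z.2 summit shift (y axis); each point is 1 list, circles H2A.Z.2 and squares H2A.Z.1. At UNG, DNMT1, TTBK2, TMEM143, CPT1A and ASPSCR1 both isoforms part by state, while at C21orf91 and POLR3K the H2A.Z.1 points of both states lie together upstream.

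The third measure was the rank of each region by fold enrichment among the 17464 regions present in all 8 lists, converted to a normal score, whose unit is 1 standard deviation. No region passed for H2A.Z.2 between states: limma gave 0 calls (0% of 17464) and 1048 regions (6%) at an unadjusted p under 0.05. The nearest was the start of GALNT7, an O-glycosylation gene, at percentiles of 64.5 and 84.4 before and 99.9 and 99.96 after confluence. Its score difference was 2.93 (SE 0.504, limma adjusted p = 0.210), or 0.0861 as the limma adjusted p with the replicate block. A region 38135 bp from IL17B stood at 4.83 and 0.217 before and 44.3 and 73.8 after. One 26259 bp from ADA, the adenosine deaminase gene, stood at 39.3 and 67.6 before and 0.449 and 0.198 after. At the start of MERTK, a receptor tyrosine kinase gene, the percentiles were 11.7 and 15.5 before and 78.7 and 76.8 after. SPC25, a kinetochore gene, stood at 67.3 and 45.2 before and 0.141 and 7.44 after, and EN2, a homeobox gene, at 88.6 and 83.2 before and 45.05 and 5.08 after. The states do not overlap at any of these 6, as in 6161 of all 17464 regions (35.3%), and these were picked by their low p. None passed the adjustment (limma adjusted p = 0.359 at ADA and 0.687 at IL17B, MERTK, SPC25 and EN2). The remaining named regions, at RSL1D1, VSIR, PXK and TNFRSF12A, also had limma adjusted p = 0.687.

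The rank differences of Exp1 and Exp2 were only weakly alike. Over 17464 regions, which share their lists and are not independent, the Exp1 and Exp2 score differences correlated at r = 0.14 and had the same sign in 55.1%. The mean H2A.Z.2 difference correlated with that of H2A.Z.1 at r = 0.27. For width the Exp1 and Exp2 differences correlated at r = 0.05 and for summit position at r = 0.07. By position, the median score difference was 0.04 at gene starts (0.07 in Exp1, 0.01 in Exp2) and −0.12 far from genes (−0.17 and −0.07). The test of the isoform by state difference on rank gave 0 limma calls and 562 regions (3.22%) at an unadjusted p under 0.05.

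**Figure D5:**
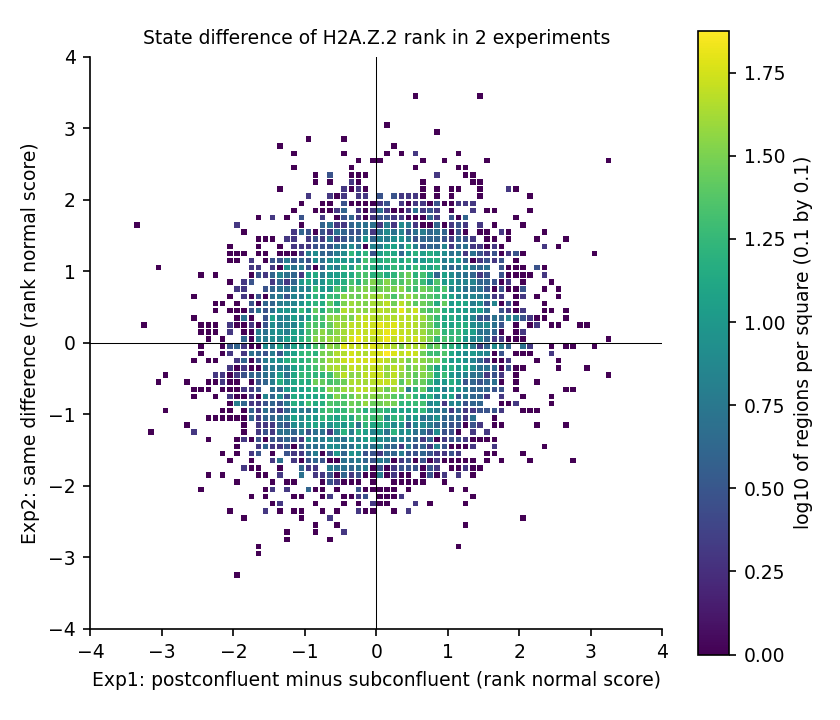
Postconfluent minus subconfluent difference of the H2A.Z.2 rank score in Exp1 (x axis) and Exp2 (y axis), in normal score units, for 17464 regions; colour gives the log10 number of regions per square of 0.1 by 0.1. The cloud is nearly round, with r = 0.14 and the same sign in 55.1% of regions.

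Width also gave 0 limma calls (0% of 17464), with 1639 regions (9.39%) at an unadjusted p under 0.05. Widths were taken relative to each list's median because the lists differed overall. The largest difference among the named regions lay 31078 bp from the start of PRM2, with 327 and 387 covered bases before and 1627 and 1739 after (2.14 on the log2 scale, SE 0.236, limma adjusted p = 0.0876). EPHB2, an ephrin receptor gene and Wnt target of the crypt, had 383 and 313 bp before and 1223 and 1003 bp after at its start, and ZNF652 528 and 500 before and 1496 and 1638 bp after (limma adjusted p = 0.0876 for both). In the other direction a region in ARMC9 had 1363 and 959 bp before and 529 and 498 bp after, and the start of CFAP221 852 and 596 before and 341 and 321 bp after (limma adjusted p = 0.0876 for both). The states did not overlap at these 5, picked by their low p, nor in 5589 of all 17464 regions (32%). The median width difference changed sign between experiments: at gene starts it was 0.08 in Exp1 and −0.12 in Exp2 on the log2 scale. Without the subconfluent Exp1 list, so that the narrow Exp2 list stood alone for its state, limma called 267 regions.

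Lists of enterocyte, cell cycle and signalling genes were then read at their starts. Of the 374 members, 213 had a region ranked in all 8 lists, and limma called 0 of them on rank and 0 on width. All regions within 1 kb of a gene start (or of either annotated end for genes with no start used here) were counted together. In the cut lists, 4 members were occupied in both lists after confluence and in none before, and 4 the reverse. Of all 20033 genes it was 118 (0.589%) and 82 (0.409%). After confluence the members were SLC28A1, a nucleoside transporter gene, BMP4, SYP and the T cell gene CD4. Before confluence they were PRDM1, MXD3, LUM and SERPINC1, of which LUM and SERPINC1 are fibroblast and hepatocyte markers. None of these members held a region absent from both whole lists of the other state, so the separation describes the cut lists only. PRDM1, a repressor gene of the fetal intestine, stood at percentiles of 28.2 and 11.2, and MXD3, of the MYC network, at 47.9 and 47.97. BMP4 stood at 36.4 and 57.3.

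Genes of the cell cycle and of the H2A.Z machinery were occupied in both states. All 38 cell cycle and replication genes and all 26 H2A.Z machinery genes held an interval in all 4 lists. Of the 34 ranked cell cycle genes 18 stood higher after confluence (median difference 0.06), against 5564 of 10728 ranked genes overall (median 0.03). TYMS, thymidylate synthase, stood at 48.9 and 64.6 before and 95.4 and 95.0 after, with a difference of 1.94 (SE 0.537, limma adjusted p = 0.706). SPC25 was the lowest of the list, at −2.20 (SE 0.507, limma adjusted p = 0.687). In the machinery list 13 of 26 stood higher (median −0.02), with ANP32E, the chaperone linked to H2A.Z removal, highest at 1.03 and ACTR6, a SRCAP complex gene, lowest at −1.34. H2AZ2 itself stood at percentiles of 95.4, 86.0, 89.8 and 90.2. Of 21 growth arrest genes 15 were in all 4 lists and 9 of 14 ranked ones stood higher, from CDKN2B at 0.72 to TOB1 at −1.38.

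Genes of the mature enterocyte differed in how many were occupied, and none passed the test. Of 25 digestive enzymes and transporters, 6 (24%) were in all 4 lists and 15 (60%) in none, against 55.2% and 36.8% of all genes. Brush border genes (54.5%) and lipid absorption genes (60%) in all 4 lists stood near the share of all genes. SLC15A1, the peptide transporter, stood at 49.4 and 82.7 before and 94.2 and 97.9 after (1.61, SE 0.589, limma adjusted p = 0.767). In the brush border list, 12 of 22 were in all 4, and 5 of 10 ranked ones stood higher, from ESPN at 0.91 to STX3 at −0.97. In the lipid absorption list 12 of 20 were in all 4 and 6 of 11 stood higher, led by MOGAT2 at 0.96. Among intestinal transcription factors 6 of 11 stood higher, from ESRRA at 1.66 to GATA6 at −0.58. In the tight junction list 8 of 18 stood higher, from CTNNB1 at 1.30 to CLDN23 at −1.67.

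Signalling and patterning lists gave the following counts. For Wnt targets and stem cell genes 9 of 15 ranked genes stood higher (median 0.19), from SP5 at 1.01 to LGR5 at −0.59. For BMP and SMAD genes it was 10 of 16 (median 0.29), from BMPR1A at 1.08 to TGFBR1 at −0.89, and for the Notch pathway 6 of 11 (median 0.25), from JAG1 at 1.10 to NUMB at −0.88. HOX genes were at 9 of 28 (median −0.11), from HOXD8 at 1.02 to HOXD3 at −1.10. Of other lineages, 0 of 5 ranked fibroblast markers stood higher (median −0.61, TAGLN lowest at −1.61), 2 of 3 blood cell markers, 1 of 3 hepatocyte markers and 2 of 2 secretory markers. None of the members named here passed limma, whose adjusted p for the highest and lowest member of each list ran from 0.687 up.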

How the data were processed

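Flag chromatin immunoprecipitation with sequencing was analysed in 8 samples of tagged Caco-2/15 cells, of which 4 carry H2A.Z.2. Per the labels' protocols, each immunoprecipitation used 4 µg of Flag antibody and received foreign chromatin (10 ng) with its own antibody (1 µg) as a spike-in, and reads were single-end and 85 bp long. BWA, deepTools and the hg38 build are named in the submitters' processing notes. Neither the peak caller nor its control was given in the sources used here, nor was any use of the spike-in. The authors deposited 1 peak list per sample, so no replicates were pooled.

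Each deposited list gives a fold enrichment per interval (a ratio), a −log10 p and a −log10 q, of which the smallest is about 3.00. The deposited score is 10 times the −log10 q cut to a whole number and was not used further. The deposited start, end and summit distance are in bp. Fold is the authors' own value and was used only as a rank within a list.

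Lists were cut to 30603 intervals by −log10 p, and intervals overlapping by at least 1 bp across the 4 H2A.Z.2 lists were merged into regions. Positions used the RefSeq gene and promoter tables (GRCh38.p14). Of 20033 protein-coding genes 15842 had a start in the promoter table, and the others, with every gene of chromosome 8 among them, were taken at both annotated ends, so no gene start of that chromosome enters the gene start counts. Rank (normal score of fold), width (log2 covered bases minus the list median) and summit position were fitted with limma 3.58.1 in R 4.3.3, with 4 group means over all 8 lists, at a Benjamini-Hochberg adjusted p under 0.05. The scripts were tested on simulated data. Per-list values were compared by 2-sided exact permutation tests. Python 3.11.15, numpy 2.4.6, pandas 2.3.3, scipy 1.17.1 and matplotlib 3.10.9 were used.

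Named regions are the 10 per direction with the highest lower percentile among those absent from both whole lists of the other state, members of the gene lists with such a region, up to 10 called regions per direction by size, and, where none was called, the 5 of lowest p per direction. A few regions that the rule picks are not reported here. From each gene list the highest and lowest ranked member is named. Other genes, such as UNG as a sequence, the HOXD13, PTGDR2 and NCAPD2 loci and the markers, were chosen outside this rule. The members and lists were chosen with earlier results of these data known. Experiment numbers mark a shared sequencing run within each isoform, per the interval names in the files. The deviations of same-numbered H2A.Z.2 lists correlated at 0.15 for rank, 0.04 for width and 0.05 for summits over 17464 regions. Alternatives were other list lengths, a stricter −log10 q of 5, other overlap rules, the replicate block, the H2A.Z.2 lists alone and leaving out each list. The other 9 samples, which used another antibody or were input, were not analysed here.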

Additional observations from a re-analysis of the deposited data

Results flagged for a closer look

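The H2A.Z.1 lists allow the state difference of the isoforms to be compared region by region, and the limma test of that difference picked out 89 of 17464 summits (38 with a higher and 51 with a lower position for H2A.Z.2 relative to H2A.Z.1). With the replicate block 7 passed. Leaving out 1 list gave 54 to 556, with 556 and 180 without the H2A.Z.1 postconfluent Exp1 and Exp2 lists and 54 without the H2A.Z.2 postconfluent Exp2 list. The values below are the H2A.Z.2 shift minus the H2A.Z.1 shift in bp along the chromosome. Among the named regions, the limma test passed for one 70230 bp from the start of MICAL2 (1069.5 bp, adjusted p = 0.011), one 22335 bp from that of CELA3A (1005 bp, adjusted p = 0.0168), the start of SEMA5A (1218 bp, adjusted p = 0.039) and one inside ZBTB38 (855 bp, adjusted p = 0.0139). It also passed, in the other direction, for a region 6147 bp from ZNF669 (−983.5 bp, adjusted p = 0.011) and the starts of C21orf91 (−847 bp, adjusted p = 0.012), SIX4 (−891.5 bp, adjusted p = 0.0177) and POLR3K (−769 bp, adjusted p = 0.0283). The largest was −1734 bp (limma adjusted p = 0.0139) at an end of BARX2, a homeobox gene, 95008 bp from the start of ARHGAP32. Of these 9 regions, those at CELA3A and C21orf91 held 1 interval in each of the 8 lists.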

How the results depend on the processing

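Rank and the isoform by state difference on rank gave 0 limma calls in every setting run. The summit count of 82 became 18 with the replicate block, 0 with only the H2A.Z.2 lists and 34 with 1 interval per region and list, and 92 to 163 when 1 list was left out. The width count of 0 became 3 with lists of equal covered length and 8 with lists of 15301 intervals, and 0 to 267 when 1 list was left out, with 267 without the subconfluent H2A.Z.2 Exp1 list. The replicate block left the rank and width counts at 0. Same-numbered lists share a run within each isoform, and Exp2 shares it across both.

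Of the 1186 postconfluent and 904 subconfluent regions, 337 and 328 were absent from the other state's whole lists and 208 and 236 had no interval within 1 kb there. Lists of 15301 intervals gave 596 and 539, equal covered length 200 and 1003, whole lists 1516 and 762, and leaving out 1 list 2081 to 4908 and 1896 to 4651. The share of downstream summits was 3.43 to 3.78 points higher after confluence in the 5 other settings run.

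Of the 20 named summits, 20 kept the call with whole lists, 11 with the replicate block and 0 with the H2A.Z.2 lists alone. Leaving out 1 list splits some merged regions, and then 10 values changed sign along the chromosome. Over the lists left out the shifts ran from −994 to 285.5 bp at BARX2 (216.5 bp without subconfluent Exp1), −309 to 2076.5 bp at CPT1A, −1203 to 146 bp at FAAP100, −44 to 1043 bp at MICAL2, −855.5 to 72 bp at POLR3K, −44.5 to 1034.5 bp at SEMA5A, −252 to 1363.5 bp at SPECC1, −842 to 61.5 bp at TMEM143 and −213.5 to 926.5 bp at UNG. The changes of sign came without postconfluent Exp2 (BARX2, CPT1A, POLR3K, TMEM143), subconfluent Exp1 (BARX2, FAAP100, SEMA5A, SPECC1, UNG) and postconfluent Exp1 (MICAL2). Read depth is not known from the lists, and 2 lists per state limit every comparison.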
